A study of Canis lupus familiaris with 30 samples.

Results

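Canine thyroid carcinomas that arise from follicular cells were compared by their growth pattern, 10 follicular tumors against 13 follicular-compact tumors, 23 of the 30 tumors with RNA in the study. The tumors were chosen by name from the histologic pattern that veterinary pathologists gave them on fixed, stained sections. No expression value set which pattern a tumor was given. The follicular tumors were TC1123, TC1213, TC1593, TC1744, TC1869, TC1994, TC2110, TC2288, TC640 and TC67. The follicular-compact tumors were TC1164, TC1218, TC1241, TC1953, TC1979, TC2011, TC2089, TC2402, TC538, TC627, TC812, TC815 and TC902. All were primary tumors of pet dogs, archived at a veterinary cancer center, and RNA came from a frozen piece of the tumor while the pattern was read on a fixed piece, so both readings need not describe the same cells. Each tumor was sequenced once, with total RNA libraries depleted of ribosomal RNA. Nothing in the labels pairs them, so each is taken as 1 independent tumor. The other 7 tumors were left out, and they are the carcinomas of C cells together with TC22, a compact tumor, and TC1088. Expression did take part in what was left out. The paper set TC1088 aside as an outlier that separated in clustering and had lost the transcript of NKX2-1, a thyroid transcription factor. It also placed a C cell carcinoma by its calcitonin transcript.

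Thyroid follicular cells line a closed lumen filled with colloid, where thyroglobulin is iodinated to make thyroid hormone, and their apical and basal faces carry different proteins. A follicular carcinoma keeps such lumens, a compact or solid one grows as sheets of cells without them, and a follicular-compact tumor holds both arrangements. The comparison asks whether the mixed pattern differs in expression from the purely follicular one. Well differentiated was the grade of most follicular tumors and of a minority of the follicular-compact tumors, so pattern and grade overlap.

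Defining markers of follicular cells were present in all 23 tumors. TG, thyroglobulin, was counted in every tumor and at no less than 8052 normalized counts, the count divided by the median-of-ratios size factor of the tumor. PAX8, a transcription factor of the thyroid lineage, was at no less than 1785 and TSHR, the thyrotropin receptor, at no less than 1694. Between 18275492 and 45148677 reads were counted on genes in follicular tumors, and between 12288945 and 36516349 in follicular-compact tumors. The mean total, follicular-compact minus follicular, differed by −1888000, within the spread (permutation p = 0.528, two-sided, 100000 resamples). TC538, a follicular-compact tumor, stood apart with the fewest reads, the smallest size factor (0.286) and the highest normalized count of all 23 tumors in 24.4% of the genes tested. Some markers of other tissues were high in few tumors. PTH, parathyroid hormone, was at 28180 in TC2288 and at 14.0 or less in the others. MYH2, a skeletal muscle myosin, was at 1013 in TC2089, 554 in TC2402 and 35.5 or less in the others. The summed skeletal muscle list, which includes the giant muscle protein gene TTN, was not confined to few tumors. It had medians of 12430 in follicular and 14430 in follicular-compact tumors. The sum was highest in TC627 (150600) and, among follicular tumors, in TC640 (79370), and MYH2 was at 0 in both. In bulk tissue, fewer cells of a type and less RNA per cell cannot be told apart.

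No gene differed between the patterns at an adjusted p below 0.05 with edgeR's quasi-likelihood test and Benjamini-Hochberg adjustment. Of 17928 genes tested, 0 were called (0%), and the smallest adjusted p was 0.562. Without adjustment 748 genes (4.17%) had a p below 0.05, of which 383 (2.14% of genes tested) were higher in follicular-compact and 365 (2.04%) higher in follicular tumors. DESeq2 on the same counts called 8 genes higher in follicular-compact (0.0446%) and 13 higher in follicular tumors (0.0725%), and limma voom with sample quality weights called 0 and 1. At an unadjusted p below 0.05 limma voom gave 192 genes higher in follicular-compact and 391 higher in follicular tumors, a more uneven split than edgeR's. Of all genes tested 9794 had an edgeR log2 fold change above 0 and 8134 below, against which the signs within each gene list can be read. Fold changes are given as log2, follicular-compact minus follicular, and the words higher and lower below describe values, not calls, unless a test is named.

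Under the edgeR fit, the size of difference that these tumors leave room for can be read from the intervals. Their standard errors were derived from the statistic of edgeR's test, and they do not include the spread between tools. The median absolute log2 fold change was 0.22 and the median half-width of the 95% interval was 0.73. For 9399 genes (52.4%) the whole interval lay within a 2-fold change either way, and for 16016 genes (89.3%) within a 4-fold change. Pattern held a median of 1.44% of the variance of a gene's log2 level. The median SD within a group was 0.73 among follicular and 0.92 among follicular-compact tumors on the log2 scale. There were 0 genes whose groups did not overlap in either direction. Over the genes tested the share of tumor pairs in which the follicular-compact member was higher ran from 3.85% to 87.7%.

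**Figure D1:**
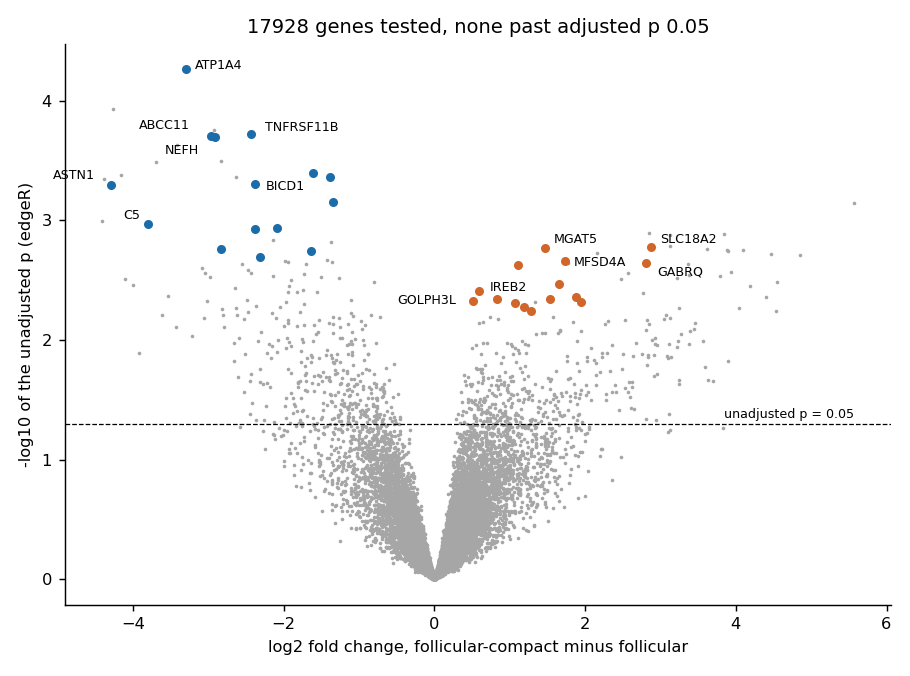
Each point is 1 of 17928 genes, with the log2 fold change (follicular-compact minus follicular) on the x axis and minus log10 of the unadjusted edgeR p on the y axis. Coloured points are the 15 genes of lowest p in each direction with a median of at least 50 normalized counts in the higher group (blue, higher in follicular; orange, higher in follicular-compact), and 0 points pass an adjusted p of 0.05.

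The tumors did not separate by pattern as wholes. Spearman's correlation over the genes tested had a median of 0.910 between follicular tumors (45 pairs, 0.862 to 0.950), 0.892 between follicular-compact tumors (78 pairs, 0.682 to 0.961) and 0.903 between tumors of different pattern (130 pairs, 0.708 to 0.951). The most similar tumor had the same pattern for 10 of the 23, 6 follicular and 4 follicular-compact. TC538 had the lowest median correlation to the others, 0.793, against 0.877 for the next, TC2011.

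On the first principal component of the 1000 most variable genes, 14.4% of the variance, follicular tumors ran from −48.5 to 27.1 and follicular-compact tumors from −43.1 to 59.3, and pattern held 3.55% of that component. Its low end carried thyroid genes, among them SLC5A5, SLC5A8 and TG, and its high end GFRA1, a co-receptor of the RET tyrosine kinase, SPOCK1, a proteoglycan, and NEFL, a neurofilament. TC1241, the highest on this component, had 23280 normalized counts of GFRA1 and 8753 of TG. TC1994 at the other end had 6.95 of GFRA1 and 3123000 of TG. The low end held tumors of each pattern, and the 4 highest scores were those of follicular-compact tumors. On the second component, 12.9% of the variance, TC812, TC1953 and TC2089 scored 69.7, 62.5 and 54.3 and all other tumors 12.8 or less, while pattern as a whole held 5.16%. Of the first 5 components the fourth, 7.21% of the variance, had the largest share held by pattern, 12.2%. On it TC538 scored 63.0, follicular tumors ran from −24.6 to 11.6 and follicular-compact tumors from −31.5 upwards.

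**Figure D2:**
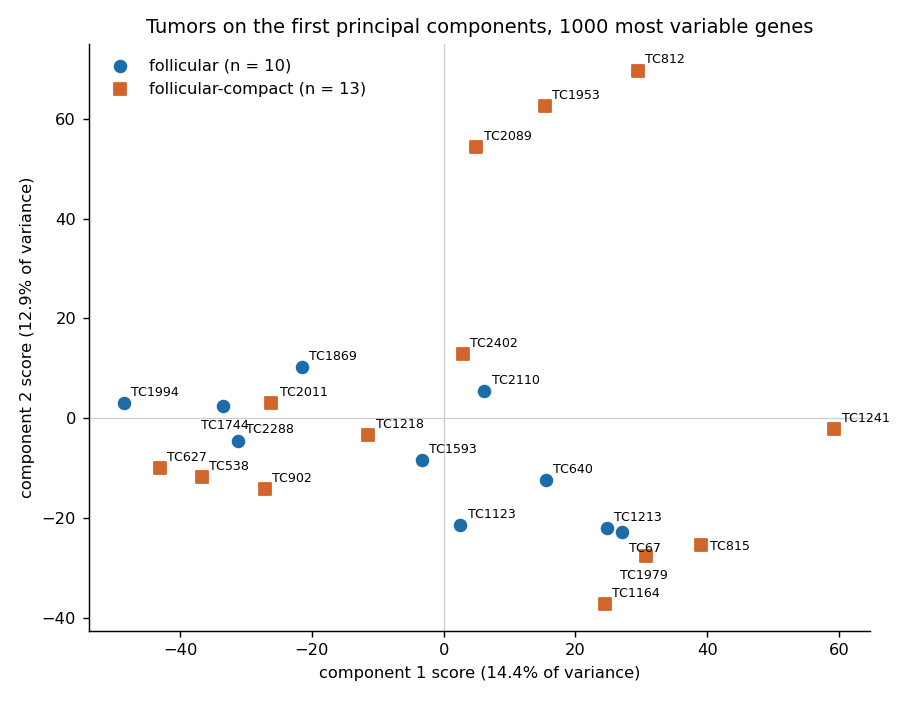
Scores of the 23 tumors on the first 2 principal components of the 1000 most variable genes (unitless, share of variance on each axis), with blue circles for 10 follicular and orange squares for 13 follicular-compact tumors. The patterns overlap on both axes, and TC812, TC1953 and TC2089 sit above 54 on component 2 with all others below 13.

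These 3 follicular-compact tumors shared high and low genes, named here from the component's loadings after their values were seen and so given with no test. CTSE, cathepsin E, an aspartic protease, had 128, 330 and 1627 normalized counts in TC812, TC1953 and TC2089 and at most 33.3 in the other 20. LIX1 had 1557, 871 and 1264 in them and at most 151 elsewhere. ANPEP, a membrane aminopeptidase, had 26850, 13760 and 36020 against at most 7440. NTM, a neural cell adhesion protein, was at 0 in all 3, and TFAP2A, a transcription factor of ectodermal lineages, was at 0.911, 0.885 and 2.42. The median of TFAP2A was 1010 in follicular and 23.9 in follicular-compact tumors. A second set of genes crossed the patterns: HOXB8, a homeobox gene, was at 4381 in TC2011 and 1129 in TC1218, both follicular-compact, and at 969 in the follicular tumor TC640.

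Genes of thyroid hormone synthesis were lower in follicular-compact tumors at the median, and none passed a test. The median log2 fold change of 18 genes was −0.36, against 0.03 over all genes tested, with 7 above 0 and 11 below, and 0 of 18 had an unadjusted p below 0.05. TG ran from 296800 over 935600 to 6534000 normalized counts (lowest, median, highest) in follicular and from 8052 over 300600 to 3941000 in follicular-compact tumors. Its log2 fold change was −1.10 (SE 0.80, 95% interval −2.76 to 0.55, edgeR adjusted p = 1.00). The groups overlapped, but 6 of 13 follicular-compact tumors lay below the lowest follicular tumor, TC640. Those were TC1979, TC1241 and TC815 with 8052, 8753 and 11190, TC2089 with 49990, and TC1218 and TC2402 with 238600 and 242600. At the upper end TC902 and TC627 had 2425000 and 3941000, above 8 and 9 of the 10 follicular tumors.

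Iodide handling showed the same spread. SLC5A5, the sodium iodide symporter that brings iodide into the cell, ran from 1007 over 7019 to 119200 in follicular and from 0 over 1464 to 78930 in follicular-compact tumors. Its log2 fold change of −0.98 had an interval of −3.22 to 1.26, and again 6 follicular-compact tumors were below every follicular one. SLC5A8, a monocarboxylate transporter of the apical membrane, had medians of 348 and 37.2 (log2 fold change −1.33, −3.04 to 0.38), with 7 follicular-compact tumors below all follicular tumors. SLC26A4, pendrin, which passes iodide to the lumen, had medians of 226 and 97.8, and SLC26A7, another anion transporter, of 5997 and 6117. The symporter and SLC5A8 were thus lowest in follicular-compact tumors, whereas the highest levels of both were in the follicular tumor TC1869.

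The enzymes also overlapped. DUOX2, which makes hydrogen peroxide for hormone synthesis, ran from 7779 over 43980 to 93440 and from 3777 over 22260 to 322600 (0.56, −0.77 to 1.89), so its fold change was positive although its median was lower. Of the DUOX2 values in follicular-compact tumors, 3 exceeded all follicular tumors. IYD, which recovers iodide from iodotyrosines, had medians of 25920 and 31490 (0.29, −0.45 to 1.03).

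**Figure D3:**
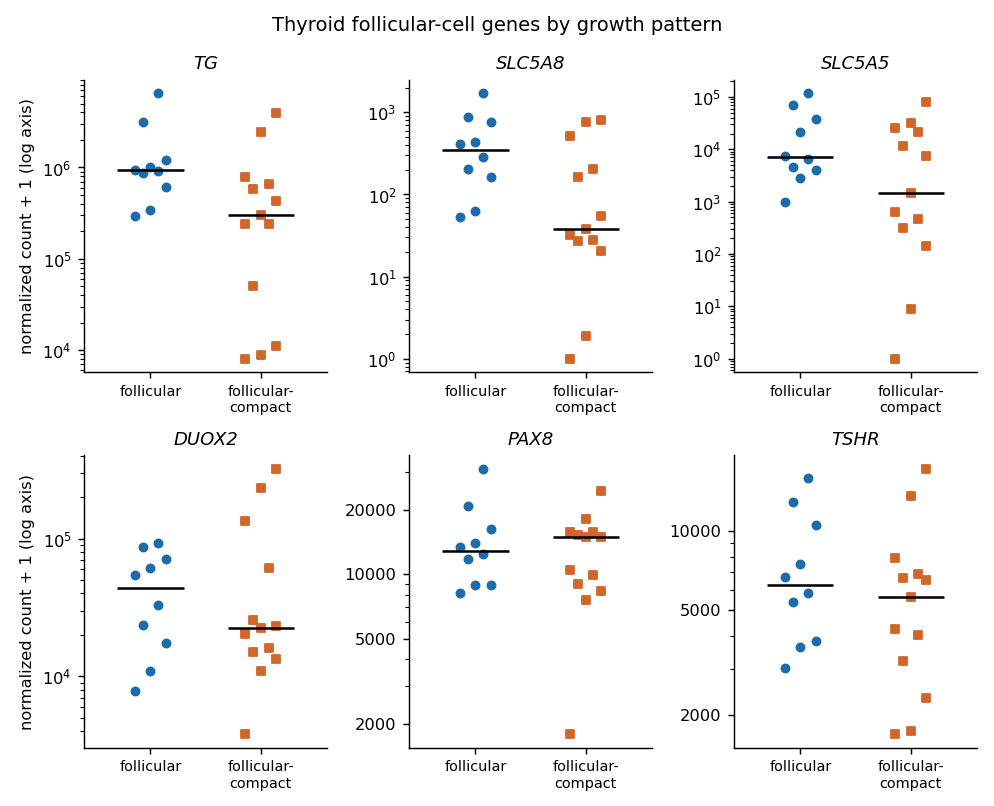
Normalized count plus 1 (log axis) of 6 thyroid genes in each of 10 follicular (blue circles) and 13 follicular-compact (orange squares) tumors, with the group median as a black bar. TG, SLC5A5 and SLC5A8 reach lower in follicular-compact tumors (8052, 0 and 0 against 296800, 1007 and 51.8). PAX8 and TSHR also reach lower there, but by less (1785 and 1694 against 8127 and 3028).

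Regulators of the thyroid lineage and genes of hormone response also held no member past a test. In this list of 11 genes tested the median log2 fold change was −0.19 and 0 had an unadjusted p below 0.05. PAX8 ran from 8127 over 12880 to 31070 in follicular and from 1785 over 14940 to 24560 in follicular-compact tumors (log2 fold change −0.19, −0.81 to 0.43), and its lowest value was in TC538. TSHR had medians of 6240 and 5606 (−0.29, −1.05 to 0.48), and HHEX, a homeobox factor of the early thyroid, of 5882 and 6448 (−0.03, −0.51 to 0.45). For PAX8 and HHEX the whole interval lay within a 2-fold change either way. GLIS3, a zinc finger factor needed for thyroid hormone synthesis, had medians of 1818 and 1042 (−0.65, −1.34 to 0.03), with 7 follicular-compact tumors below all follicular ones. KIT, a receptor tyrosine kinase expressed in normal thyroid, had medians of 2146 and 3381 (0.96, −0.20 to 2.11), with 6 follicular-compact tumors above all follicular ones.

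Genes that build apical and basal faces and lumens gave no common direction. Of 27 tested, 11 had a log2 fold change above 0 and 16 below, the median was −0.11, and 2 had an unadjusted p below 0.05, both higher in follicular tumors. One was SYTL2, which tethers secretory vesicles, with medians of 333 and 184 (−1.26, edgeR unadjusted p = 0.0476), and the other MUC1, an apical mucin, at medians of only 5.00 and 2.02. PARD3, a scaffold of the apical polarity complex, had medians of 1879 and 1878 (−0.12, −0.61 to 0.36), an interval within a 2-fold change. EZR, ezrin, which links microvilli to actin, had medians of 15620 and 19650 (0.36, −0.05 to 0.78), and PODXL, podocalyxin, which lines nascent lumens, of 3901 and 3374 (−0.49, −1.32 to 0.34). The lumen of a thyroid follicle also receives primary cilia. The list of 15 ciliary genes tested also holds genes of motile cilia, such as DNAH5 and FOXJ1. Of the 15, 12 had a log2 fold change above 0, with a median of 0.36. Not all of those were higher at the group median. IFT88 and CEP290, both highest in TC538, had lower medians in follicular-compact tumors (419.5 and 384.4, and 648.7 and 516.9). IFT140 and IFT81 had higher ones (541.1 and 648.1, and 278.9 and 372.5). The summed list ran from 4220 to 15630 in follicular and from 4825 to 34690 in follicular-compact tumors, highest in TC538. Only IFT172, of the transport complex that builds cilia, had an unadjusted p below 0.05, at 717, 1245 and 2031 in follicular and 1142, 1897 and 3460 in follicular-compact tumors (0.59, 0.18 to 1.01, unadjusted p = 0.00717).

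Cell junction genes held no member past the unadjusted threshold. Of 17 tight junction genes 0 had an unadjusted p below 0.05 and the median log2 fold change was 0.02, and of 17 genes of adherens junctions and desmosomes 0 did and the median was −0.09. TJP1, which anchors tight junctions to actin, had medians of 4469 and 4382 (0.05, −0.39 to 0.49). CDH1, E-cadherin, had medians of 46950 and 54460 (0.34, −0.29 to 0.98), and CTNND1, which binds it, of 8330 and 8660 (0.01, −0.38 to 0.40). CLDN1, a claudin of tight junctions, reached 21050 in TC2089 against 4716 at most in follicular tumors, but its medians were 1889 and 1266 (1.35, −0.17 to 2.86). CDH16, a cadherin of thyroid and kidney, was low, with medians of 35.7 and 19.4 (−1.78, −3.74 to 0.17). Of 4 keratin genes tested, 0 had an unadjusted p below 0.05, and their median was −0.01.

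Basement membrane genes held 3 of the 19 tested with an unadjusted p below 0.05, all higher in follicular-compact tumors, while the list's median was −0.18. COL4A5 and COL4A6 encode 2 chains of type IV collagen. COL4A5 ran from 2408 over 4651 to 8395 in follicular and from 2697 over 6769 to 15280 in follicular-compact tumors (0.72, 0.09 to 1.35, edgeR unadjusted p = 0.0261), and COL4A6 from 120 over 1938 to 2682 and from 164 over 2816 to 10740 (1.24, 0.15 to 2.33, p = 0.0279). Both were highest in TC2089. COL4A3 and COL4A4, 2 further chains, had the opposite sign, with medians of 2240 and 1095 (−0.83, −1.81 to 0.16) and of 2540 and 1168 (−0.84, −1.90 to 0.21). LAMA1, a laminin chain, reached 6346 in TC1164 with medians of 45.0 and 94.3 (2.41, 0.29 to 4.53, p = 0.0273). LAMB1, another laminin chain, had medians of 55380 and 69430 (0.43, −0.11 to 0.96).

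Among 14 genes of mesenchymal transition, FN1 and TNC had an unadjusted p below 0.05, both higher in follicular-compact tumors, and the list's median was −0.09. FN1, fibronectin, ran from 30720 over 46900 to 133800 and from 12500 over 65090 to 322500 (0.99, 0.00077 to 1.99, p = 0.0498). TNC, tenascin C, reached 15910 in TC1241, with nearly equal medians of 476 and 483 (1.79, 0.20 to 3.39, p = 0.0293). VIM, vimentin, had medians of 8222 and 6007 (−0.24, −0.85 to 0.36).

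**Figure D4:**
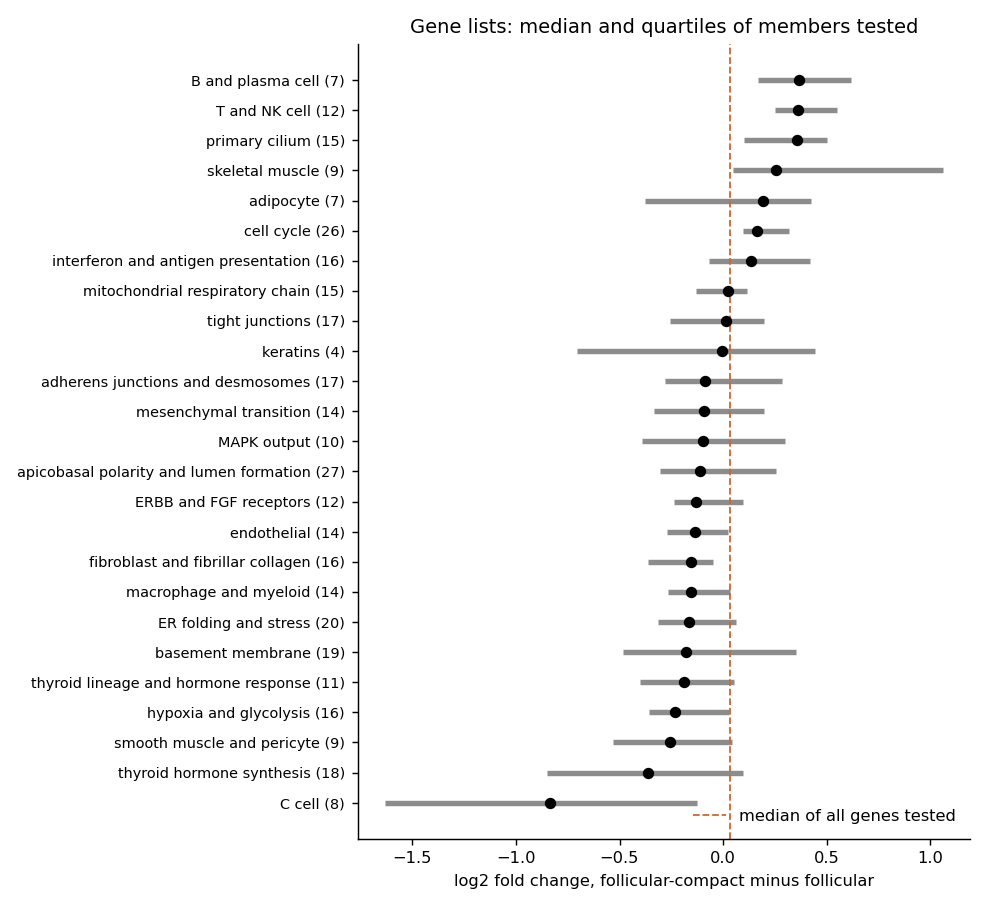
Median (black point) and quartiles (grey bar) of the log2 fold change, follicular-compact minus follicular, over the tested members of each gene list with at least 4 of them (number in brackets), with the median of all genes tested, 0.03, as a dashed line. List medians lie between −0.84 (C cell) and 0.37 (B and plasma cell), and no list was tested.

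The median log2 fold changes of the stromal lists lay slightly below 0. Of 16 fibroblast and fibrillar collagen genes 14 had a log2 fold change below 0, with a median of −0.15, and 0 had an unadjusted p below 0.05. COL1A1, a chain of type I collagen, had medians of 7019 and 1832 (−0.39, −1.80 to 1.02). The summed fibroblast list ran from 10770 over 37070 to 110500 in follicular and from 12560 over 20990 to 142300 in follicular-compact tumors. Of 14 endothelial genes 10 were below 0 (median −0.14), and PECAM1, an adhesion protein of endothelium, had medians of 2725 and 2922. Of 9 smooth muscle and pericyte genes 6 were below 0 (median −0.26), with TAGLN, an actin-binding protein, nearest to the threshold at medians of 1878 and 1414 (−0.76, −1.53 to 0.01). The summed endothelial list had medians of 25820 and 22240 and the smooth muscle list of 12870 and 12400.

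Lymphocyte genes mostly had a log2 fold change above 0. Of 12 T and NK cell genes 10 had a log2 fold change above 0, with a median of 0.36, and 7 of 7 B and plasma cell genes did, with a median of 0.37. The summed T and NK list had medians of 511 and 514 in follicular and follicular-compact tumors, and the summed B and plasma cell list of 11560 (8050 to 33230) and 15790 (7725 to 26290). CD79A, part of the B cell receptor, with medians of 10930 and 15110, made up most of the latter. GZMA, a granzyme, had medians of 4.21 and 6.99 (1.07, p = 0.0427). POU2AF1, a B cell coactivator, ran from 5.19 over 7.84 to 48.6 in follicular and from 4.97 over 26.0 to 723 in follicular-compact tumors (2.57, 0.98 to 4.17, unadjusted p = 0.00276). The B cell marker MS4A1 was at 8.89 or less in every tumor. JCHAIN, which joins polymeric antibodies, had medians of 433 and 613 (0.85, −0.23 to 1.94). Macrophage genes, 14 tested, had a median of −0.16 with 0 below the unadjusted threshold, and CSF1R, the receptor of a macrophage growth factor, had medians of 1480 and 1452 (0.03, −0.49 to 0.56). Of 16 genes of interferon response and antigen presentation 0 passed that threshold (median 0.13). Red blood cell genes left 1 member tested, ALAS2, with a log2 fold change of −0.40, and adipocyte genes 7, with 1 of unadjusted p below 0.05, CIDEC, a lipid droplet protein (−1.40), highest in TC1744, and a list median of 0.19.

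Genes of neuroendocrine C cells, which lie between follicles in the normal gland, were low. CALCA, calcitonin, ran from 12.5 over 124 to 1869 in follicular and from 0 over 59.4 to 3912 in follicular-compact tumors (0.27, −1.87 to 2.41). Of 8 C cell genes tested 2 had an unadjusted p below 0.05, both higher in follicular tumors. SCG3, secretogranin 3, ran from 39.25 over 168 to 949 and from 28.9 over 83.1 to 236.5 (−1.51, −2.46 to −0.57, p = 0.00295), and SCG2 from 0 over 9.67 to 78.5 and from 0 over 3.17 to 8.51 (−2.15, p = 0.0111). Of 9 skeletal muscle genes 1 had an unadjusted p below 0.05 (median 0.26). It was MYH2, at 1013 in TC2089 and 554 in TC2402, with medians of 3.77 and 0.81 (3.70, p = 0.0221), and its sign turned with DESeq2 (−1.41) and limma voom (−0.23). The 1 parathyroid gene tested, CASR, the calcium receptor, was at 657 in TC2288 and 464 in TC1979, with medians of 11.9 and 7.28 (−0.78, −2.90 to 1.34).

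Proliferation genes held 1 member past the unadjusted threshold. MKI67, the gene of the Ki-67 antigen, ran from 315 over 492 to 1167 in follicular and from 164 over 546 to 1882 in follicular-compact tumors (0.01, −0.66 to 0.68). Of 26 cell cycle genes 25 had a log2 fold change above 0, but the median was 0.17 and the list's range −0.09 to 0.68. MCM3, of the helicase that licenses replication origins, was the member with an unadjusted p below 0.05, at medians of 467 and 765 (0.68, 0.03 to 1.33, p = 0.0398). MCM7 of the same helicase had medians of 2283 and 2340 (0.21, −0.24 to 0.67).

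Signalling lists held few such members. Of 10 genes read as output of MAPK signalling, CCND1, cyclin D1, had an unadjusted p below 0.05 and was higher in follicular tumors, at 616, 1901 and 4020 against 353, 1067 and 2000 (−0.67, −1.32 to −0.02, p = 0.0426). DUSP6, a phosphatase induced by ERK, had medians of 809 and 780 (0.39, −0.45 to 1.24) and was highest in TC1241, at 5587. Of 12 receptors of the ERBB and FGF families and related kinases 0 passed the unadjusted threshold. ERBB2, the receptor HER2, ran from 4688 over 8586 to 31800 and from 3137 over 10070 to 17490 (−0.14, −0.79 to 0.51), and the highest value was that of the follicular tumor TC1869. EGFR had medians of 454 and 344 (−0.04, −0.89 to 0.80). In hypoxia and glycolysis genes (16 tested, median −0.23) 0 passed, and in genes of protein folding and stress in the endoplasmic reticulum (20 tested, median −0.17) 1 did, TRIB3, a pseudokinase induced by stress, with medians of 388 and 189 (−1.09, p = 0.0444). Genes of the mitochondrial respiratory chain had a median of 0.03 over 15 members, none past the threshold, and all 15 log2 fold changes lay between −0.25 and 0.24.

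The genes of lowest p with a median of at least 50 normalized counts that were higher in follicular tumors are described next, all uncalled by edgeR, with unadjusted p from 5.47e-05 to 0.00201. BICD1, an adaptor that links cargo to dynein, separated the patterns most. It ran from 165 over 662 to 1060 in follicular and from 3.64 over 53.6 to 302 in follicular-compact tumors, and 9 of 10 follicular tumors were above all 13 follicular-compact ones, the exception being TC1869. In 3.85% of pairs was the follicular-compact tumor the higher one. The log2 fold change was −2.38 (SE 0.60, −3.61 to −1.15, edgeR adjusted p = 0.562). DESeq2 called it (adjusted p = 0.036), and it was the 1 gene that limma voom called (log2 fold change −3.61, adjusted p = 0.0167). Within the follicular-compact group the tumors were spread widely, and 8 of 13 lay below the lowest follicular tumor.

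TNFRSF11B, osteoprotegerin, a secreted decoy receptor of the RANK ligand, ran from 39.1 over 129 to 863 in follicular and from 0.911 over 29.8 to 97.1 in follicular-compact tumors (−2.44, −3.59 to −1.29, adjusted p = 0.562). Of the follicular tumors 7 were above all follicular-compact tumors, and without TC640, the highest, the log2 fold change was −1.77. ATP1A4, a sodium pump subunit best known from sperm, had the smallest p of all genes, 5.47e-05, at 30.3, 207 and 5357 against 26.4, 66.4 and 190 (−3.30, −4.70 to −1.90). Its highest tumors were TC1744, TC1994 and TC1869 with 5357, 1516 and 1011, and without TC1744 the log2 fold change was −2.22. ABCC11, an export pump, ran from 7.85 over 182 to 1910 and from 8.47 over 48.9 to 148 (−2.97, −4.37 to −1.56), and without TC640 its log2 fold change was −2.25.

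NEFH, a neurofilament, ran from 62.8 over 143 to 2440 in follicular and from 10.3 over 41.9 to 330 in follicular-compact tumors (−2.91, −4.29 to −1.53, and −2.32 without TC1744). PRPH, peripherin, another intermediate filament, had medians of 77.3 and 29.9 (−1.39, −2.10 to −0.68), SYT11, a synaptotagmin of vesicle traffic, of 657 and 171 (−1.61, −2.43 to −0.80), and ASTN1, astrotactin, of 139 and 16.2 (−4.29, −6.50 to −2.08). ASTN1 was at 4412 in TC2110 and at 0 in tumors of both patterns, and without TC2110 its log2 fold change was −3.14. CDA, cytidine deaminase, had medians of 140 and 69.9 (−1.34, −2.06 to −0.63), and TMEM132C of 812 and 122 (−2.31, −3.70 to −0.93). TTLL8, a ligase that adds glycine to tubulin, and MLPH, melanophilin, which ties vesicles to myosin, had log2 fold changes of −1.64 and −2.84 and were both highest in TC1869.

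For others of these genes single tumors weighed more. C5, a complement component, had medians of 51.5 and 51.9 and a value of 10170 in TC640, and its log2 fold change went from −3.80 to 0.39 without that tumor. PTGR1, a prostaglandin reductase, had medians of 1467 and 1322 with 38330 in TC1744, and its log2 fold change went from −2.38 to −1.57 without that tumor. MARCHF9, a ubiquitin ligase, was at 11570 in TC640 and at most 1088 in the others (−2.09), and without TC640 the log2 fold change was −0.41 (p = 0.156).

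MARCHF9 lies beside CDK4 in the order of the RefSeq annotation of the UU_Cfam_GSD_1.0 assembly, and its neighbours were looked up after its value was seen. Of 12 genes in the run from AGAP2 to LRIG3, 11 had a symbol in the counts, and 10 of these were highest in TC640. CDK4, a kinase of the entry into the cell cycle, had 36130 normalized counts there, 19.7 times the median of the other 22 tumors. The ratio was 16.5 for TSPAN31, 26.4 for MARCHF9, 18.7 for METTL1, 16.8 for TSFM, 12.4 for CTDSP2 and 42.8 for LRIG3, and AGAP2 at the edge of the run had 4.37. All 10 had an unadjusted p below 0.05 in the comparison of patterns, and 1 of them, CYP27B1, which activates vitamin D, still did without TC640 (p = 0.00124). CDK4 had a log2 fold change of −1.33 with TC640 and 0.15 without.

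The genes of lowest p that were higher in follicular-compact tumors had larger p, from 0.00166 to 0.00567 among those with a median of at least 50 normalized counts. MGAT5, which adds a branch to N-linked sugars in the Golgi, ran from 152 over 622 to 1512 in follicular and from 554 over 1856 to 5365 in follicular-compact tumors (1.46, 0.60 to 2.32, edgeR adjusted p = 0.808), and 7 of 13 follicular-compact tumors exceeded all follicular ones. GOLPH3L, a Golgi protein that binds phosphoinositides, ran from 496 over 563 to 713 and from 537 over 848 to 1276 (0.51, 0.17 to 0.86), and the follicular-compact tumor was the higher in 87.7% of pairs, the largest share of any gene tested. MFSD4A, a putative transporter, had medians of 56.2 and 281 (1.74, 0.69 to 2.78), and ANXA4, a calcium-dependent membrane-binding protein, of 1543 and 3404 (1.19, 0.39 to 1.99).

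IREB2, a regulator of iron metabolism, was at 1161, 1612 and 2462 against 1793, 2439 and 3944 (0.60, 0.21 to 0.98), and ODC1, the enzyme that starts polyamine synthesis, was at 2187, 2922 and 6377 against 1787, 6054 and 13860 (0.83, 0.28 to 1.38). IREB2 was lower in 7 of 10 follicular tumors than in any follicular-compact one. MEST, an imprinted gene, had medians of 1062 and 2452 (1.54, 0.52 to 2.55), with a low value of 19.9 in the follicular tumor TC67. DLX6, a homeobox gene, had medians of 71.6 and 104 (1.11, 0.43 to 1.78), and ABCA4, a lipid transporter of the retina, of 99.8 and 225 (1.28, 0.41 to 2.15). KCNIP2, a subunit of potassium channels, THSD4, a protein of microfibrils, ABTB2 and COMMD8 had log2 fold changes of 1.65, 1.94, 1.88 and 1.07.

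SLC18A2, the vesicular monoamine transporter, and GABRQ, a subunit of GABA receptors, rested more on single tumors. SLC18A2 ran from 16.4 over 101 to 194 in follicular and from 13.6 over 289 to 5649 in follicular-compact tumors (2.87, 1.19 to 4.55), led by TC1241, TC812 and TC1953, and without TC1241 its log2 fold change was 1.77. GABRQ was led by the same 3 tumors, with medians of 63.9 and 76.0 and a highest value of 2683 (2.81, 1.11 to 4.52), and its log2 fold change was 2.05 without TC1241. Leaving out the tumor with the highest value left an unadjusted edgeR p below 0.05 for all 15 of these genes that were higher in follicular-compact tumors. It did so for 13 of the 15 higher in follicular tumors, the exceptions being C5 and MARCHF9. All were chosen for their low p in the same tumors, so these counts are a description and lend no support to a difference.

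**Figure D5:**
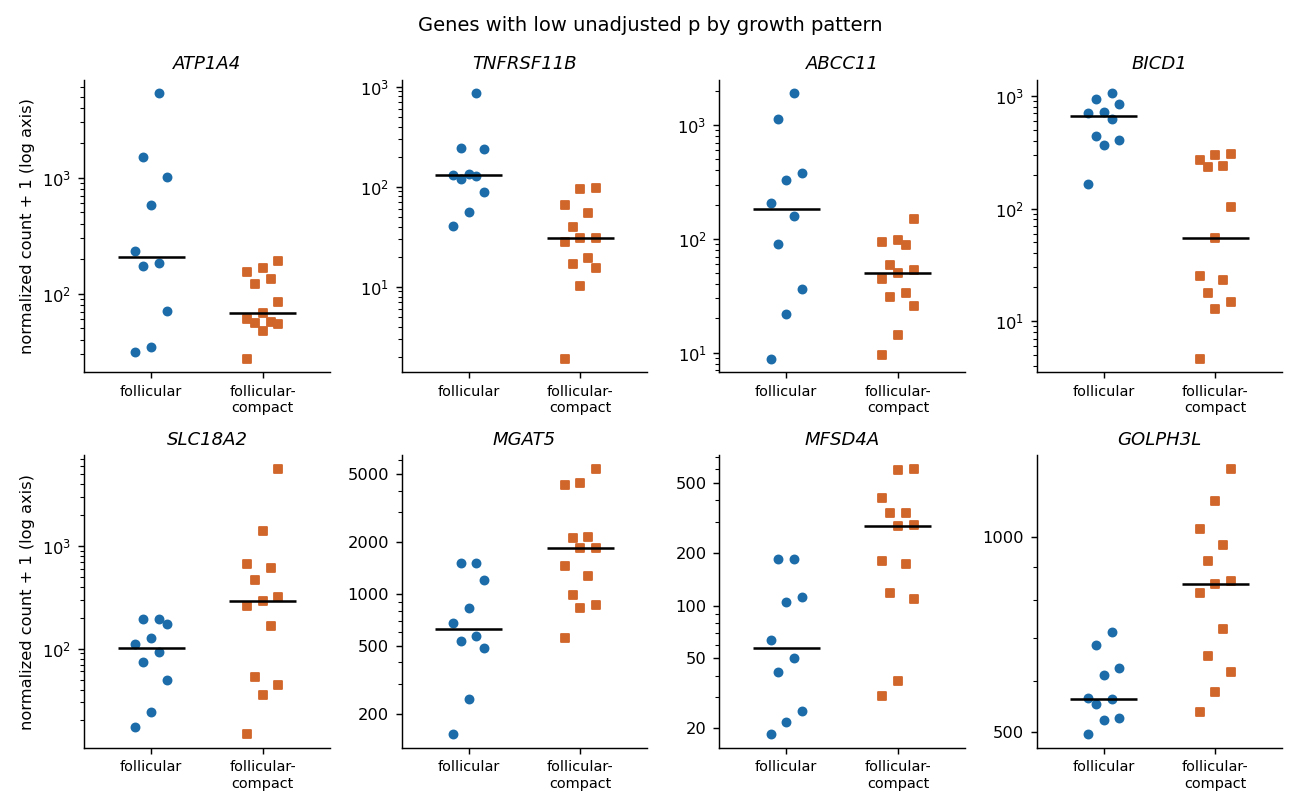
Normalized count plus 1 (log axis) in each tumor for 4 genes higher in follicular (top) and 4 higher in follicular-compact tumors (bottom), with blue circles for 10 follicular tumors, orange squares for 13 follicular-compact tumors and the group median as a black bar. The groups overlap in all 8 genes, least in BICD1, where 9 of 10 follicular tumors lie above every follicular-compact tumor.

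DESeq2's 21 calls rested in part on few tumors. Of the 13 higher in follicular tumors, 8 with a symbol also stand among the genes of lowest p above. Among the others were CYP27B1 and GPX2, a glutathione peroxidase at 677 in TC1994 with medians of 23.4 and 16.6. Of the 8 higher in follicular-compact tumors, AFF2 had medians of 19.4 and 19.7 and was at 621, 560 and 468 in TC1241, TC812 and TC1953. GFRA1 was at 23280 in TC1241, 54.8% of its sum over all tumors, and HOXB8 at 4381 in TC2011, 66.3% of its sum. Leaving out 1 tumor at a time, DESeq2 called ATP1A4, ABCC11, NEFH and TNFRSF11B in 22 of 23 fits, BICD1 in 12 and GFRA1 and HOXB8 in 8.

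Which tumor held the highest value was counted over the whole set of genes with an unadjusted p below 0.05. Among the 383 that were higher in follicular-compact tumors, TC538 held the highest value in 29.2%, TC1241 in 16.2% and TC812 in 12.8%, against 24.4%, 4.40% and 6.24% of all genes tested. Among the 365 higher in follicular tumors, TC1744 did so in 26.8%, TC1869 in 19.5% and TC640 in 13.7%, against 4.31%, 10.6% and 2.57%. These shares are not on a like basis. A gene higher in a given pattern mostly has its highest value in a tumor of that pattern, whereas all genes tested include those topped by either. A share above that of all genes is thus partly built in, and no excess is read from it. One tumor held over 50% of its group's summed count in 25.3% of the first and 25.2% of the second set, and in 787 and 556 of all 17928 genes tested. Since the rule for a low p uses these values, the shares are a description.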

How the data were processed

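RNA of 30 primary canine thyroid tumors was sequenced as paired reads. The authors mapped the reads with STAR to CanFam3.1 and deposited raw counts per gene, which were used as deposited. The strand setting of the counts is not given in the sources used here. It is therefore not known whether overlapping and antisense genes were counted apart. The 10 follicular and 13 follicular-compact tumors were compared on 17928 of 30424 genes, those that reached 10 counts in no fewer than 5 of the 23, 13240 of them with a symbol. The test was edgeR 4.0.16 (TMM, quasi-likelihood) in R 4.3.3, called at a Benjamini-Hochberg adjusted p below 0.05. Normalized counts are counts divided by median-of-ratios size factors based on 16080 genes counted in every tumor. Components used log2 of the normalized count plus 1.

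Alternatives were DESeq2 1.42.0 with and without a log2 fold change limit of 2, limma 3.58.1 voom with quality weights, DESeq2 size factors in edgeR, robust dispersion, no filter, a filter of 10 tumors, grade or sex as a term, and each tumor left out. Leaving tumors out of DESeq2, its fold change limit and the neighbours of CDK4 without TC640 were chosen after seeing the data. The named genes were the 15 of smallest p in each direction with a symbol and a median of at least 50 normalized counts in the higher group, the 2 members of smallest p of each list, and markers of the tissue and the study's groups, among them TG, SLC5A5, PAX8, TSHR, CDH1, CDH16, MKI67, ERBB2 and CALCA. A few named genes are not reported here. Other genes named were chosen after their values were seen. The members and lists were chosen with earlier results of these data known. The code was tested on simulated data. Figures were drawn with matplotlib 3.10.9, and permutation tests used scipy 1.17.1.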

Additional observations from a re-analysis of the deposited data

Results flagged for a closer look

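Among the 10 follicular tumors, 8 of 90 measures had an end value whose gap to its neighbour exceeded Dixon's 95% critical value. Chance gives about 1 in 20 such flags for normally distributed measures not chosen by their values. Most of these measures were genes named for a low p in the same tumors, so that rate is no baseline for them. The 13 follicular-compact tumors were not screened, so outlying values there are not listed. Gaps are shares of the group's range on the log2 scale (normalized count plus 1, or total count), while values are printed as normalized counts. MEST was low in TC67, at 19.9 normalized counts against 456 to 2065 in the others (gap 0.672), and ABCA4 low in TC1869, at 13.0 against 41.6 to 138 (0.485). In TC640, C5 was at 10170 against 19.0 to 157 (0.668) and MARCHF9 at 11570 against 306 to 1088 (0.651). NECTIN3, a cell adhesion protein, was at 1508 in TC1213 against 23.0 to 155 (0.548), CASR at 657 in TC2288 against 1.73 to 27.5 (0.572), and ERBB2 at 31800 in TC1869 against 4688 to 12800 (0.475). The total count on genes had a gap of 0.508. Causes were not tested.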

How the results depend on the processing

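The count of 0 genes called by edgeR in each direction held with DESeq2 size factors, robust dispersion, either other filter, the fold change limit, grade or sex as a term, and each tumor left out. Without adjustment, leaving out 1 tumor gave 315 (without TC1744) to 471 (without TC1979) genes higher in follicular-compact and 271 (without TC1744) to 458 (without TC2011) higher in follicular tumors. With grade as a term they were 194 and 268, and with sex 303 and 256. DESeq2, whose construction replaces outlying counts, called 8 and 13, and 8 and 11 with the limit. Leaving out 1 tumor at a time, it called 0 (without TC1869) to 13 (without TC902) and 2 (without TC1744) to 23 (without TC902). Limma voom called 0 and 1. With 3000 genes, pattern held 0.505% of component 1 and 2.18% of component 2. Of 90 named genes, DESeq2 turned the sign of 5, which were C5 (0.025), NECTIN3 (0.41), MYH2 (−1.41), PLIN1 (−0.038) and CALCA (−1.01). Voom turned KRT80 (−0.028), MYH2 (−0.23), MKI67 (−0.16), ERBB2 (0.087) and CALCA (−1.57). Grade turned MKI67 (−0.11), ERBB2 (0.17) and CALCA (−1.11), and sex turned MKI67 (−0.11) and CALCA (−1.005). Leaving out 1 tumor also turned signs, with a range of −4.15 to 0.39 for C5, −1.34 to 0.40 for NECTIN3, −2.90 to 1.86 for CASR, −0.016 to 1.72 for PLIN1, −0.30 to 0.011 for PAX8, −0.27 to 0.17 for MKI67, −0.23 to 0.22 for ERBB2 and −0.98 to 0.98 for CALCA. None of these genes was called by edgeR, and the causes were not tested. With DESeq2 size factors no median of the 27 lists changed sign. No paired analysis was possible because the tumors carry no number that pairs them across patterns.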
